A study of Mus musculus with 12 samples.

Results

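Ebf2-EGFP+ cells of the mouse cerebral cortex were compared with Ebf2-EGFP- cells at E15.5, in days of embryonic development, when the reporter marks cells of layer 1 and the negative cells include neurons of the cortical plate. The comparison took every library of that stage, 2 of each population and 4 of the 12 in the series, and the choice used their labels and no measured value. Expression of 4859 coding genes and 200 long non-coding RNA (lncRNA) transcripts was compared. Both populations came from the strain Tg(Ebf2-EGFP)FB58Gsat and were separated by fluorescence-activated cell sorting after the cortex had been dissociated, with polyadenylated RNA taken for sequencing. In this strain EGFP is driven by *Ebf2* sequence on a bacterial artificial chromosome, so the sort follows the transgene and not the endogenous EBF2 protein. Each library held cells pooled from several embryos, and the study calls the libraries of a group biological replicates. The 4 libraries of E13.5 and the 4 of E11.5 were used to place the E15.5 differences in time.

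Cajal-Retzius (CR) neurons are early-born neurons that arise at the borders of the pallium, among them the cortical hem and the septum, and spread under the pia into what becomes layer 1. They secrete reelin, a large extracellular glycoprotein that acts through lipoprotein receptors on radially migrating neurons and is needed for the layering of the cortical plate. Below them, radial glia and intermediate progenitors produce the glutamatergic neurons of the deep and then the upper layers, while GABAergic interneurons enter from the ganglionic eminences.

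Levels are FPKM, fragments per kilobase of transcript, scaled to the mapped fragments of each library. Summed over the 4859 coding genes, they came to 146703 and 136667 in the Ebf2-EGFP+ libraries and to 137709 and 130133 in the Ebf2-EGFP- libraries, replicate 1 before replicate 2 here and in every pair of values that follows. A log2 fold change is the mean of log2(FPKM + 1) in Ebf2-EGFP+ cells minus that in Ebf2-EGFP- cells, so a positive value means a higher level in Ebf2-EGFP+ cells. A gene was called higher or lower when its limma p, adjusted by the Benjamini-Hochberg method over the whole table, was under 0.05. The median gene differed by 0.19 on the log2 scale between the Ebf2-EGFP+ libraries, by 0.22 between the Ebf2-EGFP- libraries and by 0.56 between the populations, sign disregarded.

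The CR markers *Reln*, *Trp73*, *Lhx5*, *Ndnf* and *Cacna2d2* were all higher in Ebf2-EGFP+ cells. *Reln*, which encodes reelin, stood at 399 and 925 FPKM in the Ebf2-EGFP+ libraries and at 13.7 and 10.6 FPKM in the Ebf2-EGFP- libraries. The libraries of the populations did not overlap, although the Ebf2-EGFP+ replicates lay far apart. With 1 added to FPKM, the log2 fold change was 5.54 (standard error 0.33, adjusted p = 5.78e-07), the highest of all coding genes. With 0.1 added in place of 1, *Ndnf* (6.86), *Trp73* (6.39) and *Lhx5* (5.96) were above *Reln* (5.64). *Trp73*, the gene of the p53 relative p73, measured 41.9 and 54.6 FPKM against 0.726 and 0.295 FPKM. Its replicates were close in Ebf2-EGFP+ cells and both negative libraries were under 1 FPKM, at a log2 fold change of 5.03 (standard error 0.19, adjusted p = 3.3e-08). *Lhx5*, a LIM homeodomain factor of the cortical hem, measured 20.8 and 22.6 FPKM against 0.285 and 0.218 FPKM. These libraries again did not overlap (log2 fold change 4.18, standard error 0.16, adjusted p = 3.3e-08). *Ndnf*, which encodes a secreted neurotrophic factor, was the least even of the 5, at 17.95 and 75.95 FPKM in the Ebf2-EGFP+ libraries and 0.238 and 0.19998 FPKM in the negative libraries. Both positive libraries were above both negative libraries, at a log2 fold change of 4.97 (standard error 0.48, adjusted p = 9.81e-06). *Cacna2d2*, a calcium channel auxiliary subunit, measured 31.1 and 51.6 FPKM against 2.22 and 1.98 FPKM, without overlap and with a log2 fold change of 3.73.

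All 5 markers were called higher, where 25.8% of all coding genes were, and none of the 5 overlapped between the populations, where 34.7% of all coding genes were above in both Ebf2-EGFP+ libraries. Their summed level was 511 and 1129 FPKM in the Ebf2-EGFP+ libraries and 17.1 and 13.3 FPKM in the Ebf2-EGFP- libraries, most of it *Reln*. In pooled RNA, fewer cells of a type and less RNA per cell cannot be told apart, and this holds for every level below. *Ebf2* itself, whose sequence drives the reporter, was low at this stage, 2.83 and 5.14 FPKM against 0.103 and 0.0644 FPKM, without overlap. Its log2 fold change was 2.16 (adjusted p = 3.3e-05), or 4.42 with 0.1 in place of 1 added to FPKM. *Neurod2*, a bHLH factor listed here with migrating cortical neurons, stood at 281 and 173 FPKM in the Ebf2-EGFP+ libraries and at 298 and 219 FPKM in the negative libraries. The 5 markers had been named for CR cells beforehand. The paper placed *Reln*, *Trp73*, *Lhx5* and *Cacna2d2* among genes higher at every stage of these same data. The direction of the 5 markers is therefore no test of the label of CR-enriched cells. The plot of these markers by stage and library shows the spread of the replicates.

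**Figure D1:**
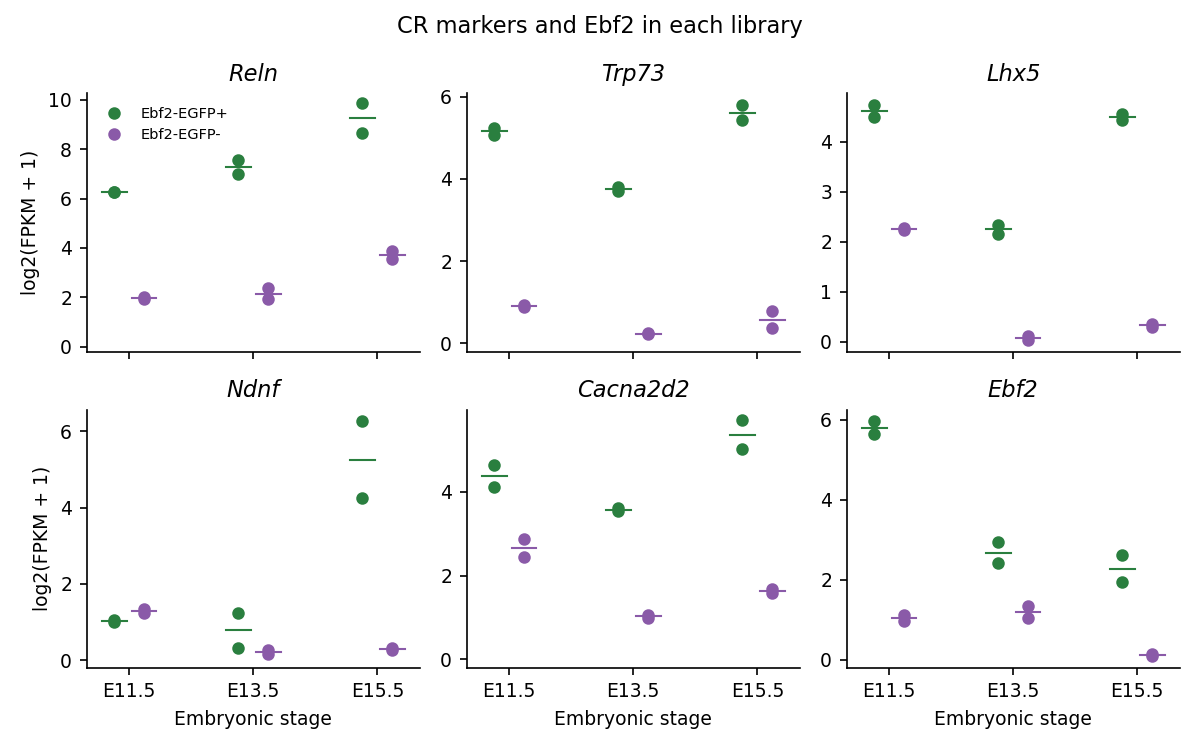
Level of the 5 CR markers and *Ebf2* in each library, as log2(FPKM + 1), by embryonic stage. Each point is a library and each bar the mean of its group, green for Ebf2-EGFP+ and purple for Ebf2-EGFP- cells; at E15.5 both green points lie above both purple points in all 6 panels.

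The starts of *Reln* and *Trp73* are shown because promoters of genes high in the same cells differed widely in CpG content. *Reln* and *Trp73* had the largest log2 fold changes as defined above, but this rank depended on the value added to FPKM. With 0.1 added, *Ndnf* (6.86) was above both, and *Lhx5* (5.96) was above *Reln* (5.64). RefSeq promoters (GRCm38.p6, 250 bases before to 50 after each start) were looked up for the 20 genes of the lists of CR markers and of CR and preplate genes. Of these, 15 matched, with 18 promoters, and *Lhx5*, *Ndnf*, *Ebf2*, *Calb2* and *Nxph3* did not. The *Reln* promoter (chr5:22344656-22344955, minus strand) held 47 CpG and 80.7% G and C. *Trp73* had an internal promoter (chr4:154097124-154097423, minus strand) with 6 CpG and 57.7% G and C, and an upstream promoter (chr4:154139826-154140125, minus strand) with 39 CpG and 77.7% G and C. The median was 7 CpG over the 32851 promoters of the table and 20 over those of all coding genes listed, beside 18 for genes called higher and 21 for genes called lower. The sequences below run 5′ to 3′ on the gene's strand, with each CpG in capitals. The values are per gene, so the share of *Trp73* RNA from each start was not measured here.
Reln: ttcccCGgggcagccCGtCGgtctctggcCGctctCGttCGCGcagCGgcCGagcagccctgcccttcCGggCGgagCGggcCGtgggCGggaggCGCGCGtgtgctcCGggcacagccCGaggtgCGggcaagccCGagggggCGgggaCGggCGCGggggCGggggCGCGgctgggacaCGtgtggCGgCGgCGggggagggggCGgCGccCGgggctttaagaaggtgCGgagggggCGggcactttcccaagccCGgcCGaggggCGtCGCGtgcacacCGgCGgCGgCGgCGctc
Trp73 internal: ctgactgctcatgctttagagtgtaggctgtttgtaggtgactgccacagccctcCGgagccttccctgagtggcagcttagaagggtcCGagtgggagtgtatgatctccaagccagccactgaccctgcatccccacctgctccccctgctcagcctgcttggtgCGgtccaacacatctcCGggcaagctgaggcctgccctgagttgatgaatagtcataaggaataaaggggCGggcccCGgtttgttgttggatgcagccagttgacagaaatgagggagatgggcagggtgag
Trp73 upstream: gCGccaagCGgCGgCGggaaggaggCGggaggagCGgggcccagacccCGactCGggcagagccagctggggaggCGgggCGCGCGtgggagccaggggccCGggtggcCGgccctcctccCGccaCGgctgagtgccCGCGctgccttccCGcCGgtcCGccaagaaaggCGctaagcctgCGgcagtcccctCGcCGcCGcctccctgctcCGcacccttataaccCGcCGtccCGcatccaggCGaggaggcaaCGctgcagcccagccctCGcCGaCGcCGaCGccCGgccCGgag

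The core of the motif bound by EBF factors, CCCNNGGG, which reads the same on both strands, was in 3 of the 18 promoters of the CR lists: those of *Reln*, *Ebf3* and *Nhlh1*. It was in 4491 of all 32851 promoters (13.7%) and in 967 of 4764 promoters of all coding genes listed (20.3%), the set the calls came from. Genes called higher, with 257 of 1272 promoters (20.2%), and genes called lower, with 302 of 1457 (20.7%), were near that share. A longer form, with T before and A after the core, was in 0 of the 18, in 297 of all promoters (0.904%) and in 57 of those of the coding genes listed (1.2%). The core was searched after the longer form had been, and no match says only that these letters are not in this window.

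Over all coding genes, 2788 of 4859 (57.4%) differed between the populations at E15.5, 1254 higher and 1534 lower (31.6%) in Ebf2-EGFP+ cells. After the libraries were rescaled by the median-of-ratios method, which equalises the typical gene, 1597 were higher and 1323 lower, so the larger side turned over. That scaling moved the median log2 fold change of all coding genes from -0.11 to 0.02, a shift of 0.13, and directions of gene groups below are given where they turned with it. A difference of at least 2-fold was reached by 538 of the higher and 652 of the lower genes, of at least 4-fold by 100 and 143, of at least 8-fold by 21 and 20, and of at least 16-fold by 4 and 3. Genes nearly restricted to a population were fewer. With a mean of at least 5 FPKM in a population and under 1 FPKM in the other, 36 genes marked Ebf2-EGFP+ cells, *Trp73*, *Lhx5*, *Ndnf*, *Ebf3*, *Car10*, *Gdf5*, *Fibcd1* and *Kcnab1* among them. In the other direction 54 genes met this, with *Dlx1*, *Tfap2c*, *Id3* and *Gli3* among them.

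**Figure D2:**
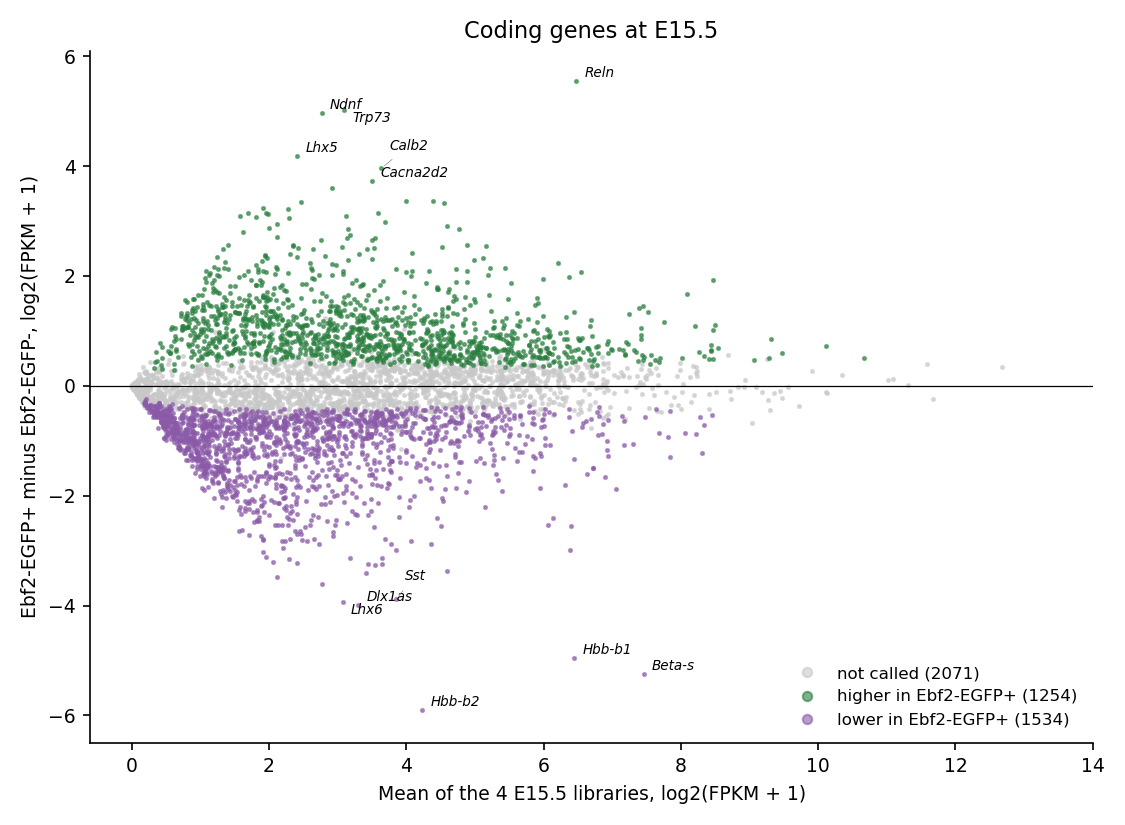
Each point is a coding gene, with the mean of log2(FPKM + 1) over the 4 E15.5 libraries on the horizontal axis and the log2 fold change, Ebf2-EGFP+ minus Ebf2-EGFP-, on the vertical axis. Green and purple mark the 1254 genes called higher and the 1534 called lower; labels name the 6 genes with the largest fold changes on each side, led by *Reln* above and *Hbb-b2* below.

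Of the genes of CR and preplate neurons, 12 of the 14 in the table (15 listed) were called higher and 0 lower, beside 25.8% and 31.6% of all coding genes. Their median log2 fold change was 2.42, beside -0.11 over all coding genes. The paper placed *Nhlh2*, *Ppp2r2c*, *Kcnip2*, *Nxph3*, *Tmem163*, *Calb2*, *Tbr1*, *Ebf2*, *Ebf3*, *Lhx1* and *Cdkn1a* among genes higher at every stage of these same data. For these genes the direction restates that choice, and the count is no test of the list. *Calb2*, which encodes the calcium buffer calretinin, measured 40.8 and 56.5 FPKM against 2.29 and 2.02 FPKM, without overlap (log2 fold change 3.96, adjusted p = 3.66e-07). *Kcnip2*, which encodes a subunit of A-type potassium channels, measured 18.4 and 35.2 FPKM against 1.18 and 1.17 FPKM, also without overlap (log2 fold change 3.60, adjusted p = 1.05e-06). Among the transcription factors, *Nhlh2* reached a log2 fold change of 3.37 and *Ebf3*, a close relative of *Ebf2*, 3.35. *Nxph3*, a secreted ligand of neurexins, reached 3.33. The remaining genes among the 12 with the largest fold changes were *Hs3st4*, a heparan sulfate sulfotransferase (3.36), and *Car10*, a carbonic anhydrase-related protein without enzyme activity (3.23), where all 12 were taken from genes called without overlap. *Tbr1*, a T-box factor of early-born glutamatergic neurons and the most abundant of the list, measured 170.1 and 111 FPKM against 60.4 and 47.7 FPKM (1.34). *Car10* was uneven in the way of *Ndnf*, at 5.76 and 18.7 FPKM in the Ebf2-EGFP+ libraries and 0.252 and 0.202 FPKM in the negative libraries. *Nhlh1*, a bHLH factor of young neurons, overlapped at 19.9 and 4.97 FPKM against 28.6 and 11.6 FPKM and was not called (-0.79, adjusted p = 0.171). It was called lower without Ebf2-EGFP+ replicate 1 (-1.70), without Ebf2-EGFP- replicate 2 (-1.41) and with replicate numbers as a block, and turned to 0.11 without Ebf2-EGFP+ replicate 2.

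Few genes that receive the reelin signal were in the table. Of the 7 there (16 listed), 1 was higher and 2 were lower, where 25.8% and 31.6% of all coding genes were, with a median of -0.30 that was -0.09 under median-of-ratios scaling. There were 2 higher without Ebf2-EGFP- replicate 2 or under median-of-ratios scaling, and 3 higher and 4 lower with replicate numbers as a block. *Dab1*, the gene of an adaptor of the reelin pathway, was higher at 133 and 117 FPKM against 77.5 and 76.1 FPKM (log2 fold change 0.70, adjusted p = 0.00618). The reelin receptor gene *Lrp8* was lower, at 28.9 and 29.4 FPKM against 44.2 and 55.6 FPKM (-0.75, adjusted p = 0.00406), and so was the integrin gene *Itgb1* (-0.66). In both cases the libraries did not overlap, and the ligand and the adaptor were thus both high in Ebf2-EGFP+ cells while this receptor was higher in the negative cells.

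Of 26 transcription factors with regional expression (27 listed), 7 were higher and 10 lower, near the 25.8% and 31.6% of all coding genes, with a median of -0.27. That median was -0.16 under median-of-ratios scaling, -0.55 with a pseudocount of 0.1 (0.1 in place of 1 added to FPKM before the logarithm), -0.46 without Ebf2-EGFP- replicate 2, -0.14 without Ebf2-EGFP+ replicate 2 and -0.003 without Ebf2-EGFP- replicate 1. *Barhl2*, a homeobox gene of the diencephalon and thalamic eminence, measured 4.21 and 4.47 FPKM against 0.0653 and 0.0498 FPKM, without overlap (log2 fold change 2.34, adjusted p = 3.18e-05). *Zic2*, a zinc finger factor of the septum and cortical hem, measured 16.05 and 21.7 FPKM against 4.16 and 2.09 FPKM, without overlap (2.30, adjusted p = 2.85e-05). Its relatives *Zic1*, *Zic4* and *Zic5*, chosen after their values were seen, were called higher too (1.81, 0.91 and 1.31). On the other side, *Tfap2c*, an AP-2 factor of cortical progenitors, measured 1.101 and 0.673 FPKM against 17.5 and 8.03 FPKM (-2.79), and *Gli3*, a transcription factor of hedgehog signalling, was lower by a log2 fold change of -2.19.

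Receptors, channels and synaptic genes were more often higher than lower in Ebf2-EGFP+ cells. The paper describes the negative cells of this stage as both cortical plate neurons and progenitors. The part of progenitors in the counts of this and the next 3 paragraphs was not tested. Over all coding genes 25.8% were higher and 31.6% lower. Of 10 ionotropic glutamate receptor genes (18 listed), 5 were higher and 3 lower (median 0.69), the lower count being near that share. Of 6 metabotropic genes (7 listed), 5 were higher and 0 lower (median 0.92, or 1.42 with a pseudocount of 0.1). *Grik3*, a kainate receptor subunit, measured 45.7 and 34.4 FPKM against 11.3 and 10.04 FPKM, without overlap (log2 fold change 1.80, adjusted p = 0.000182). *Grin1*, the obligate NMDA receptor subunit, measured 18.2 and 22.8 FPKM against 5.9997 and 8.13 FPKM, without overlap (1.42, adjusted p = 0.000133). The kainate subunits *Grik1* and *Grik2* went the other way (-0.94 and -0.94), and the most abundant subunit, *Gria1*, was not called at 42.6 and 37.8 FPKM against 29.3 and 30.7 FPKM, though it was called higher under median-of-ratios scaling (0.61) and with replicate numbers as a block. *Grm3* led the metabotropic genes with 5.82 and 9.92 FPKM against 0.774 and 1.48 FPKM (2.04), and *Grm2*, the most abundant, had a log2 fold change of 1.11, or 0.70 without Ebf2-EGFP- replicate 1.

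On the inhibitory side, 10 of 12 genes of GABA and glycine receptors and chloride transport (19 listed) were higher and 1 was lower, with a median of 0.93. Over all coding genes these shares were 25.8% and 31.6%. *Gabra5* and *Gabra3*, α subunits of GABA-A receptors, had log2 fold changes of 1.56 and 1.32, and the most abundant member, the GABA-B receptor gene *Gabbr1*, stood at 124 and 121 FPKM against 65.1 and 72.1 FPKM (0.83). The lower gene was *Slc12a2*, the chloride importer NKCC1, at 5.57 and 4.87 FPKM against 9.37 and 7.64 FPKM (log2 fold change -0.61, adjusted p = 0.0045000), without overlap. It was not called when the 4 E15.5 libraries were fitted by themselves.

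Genes listed with sodium, calcium, potassium and HCN channels were higher in most cases, where 25.8% of all coding genes were higher and 31.6% lower. The lists hold auxiliary subunits and channels that are not voltage-gated. Of 24 sodium and calcium channel genes (29 listed), 17 were higher and 1 lower (median 0.81). Of 35 potassium and HCN channel genes (55 listed), 24 were higher and 3 lower, or 5 lower with replicate numbers as a block (median 0.71). *Cacna2d3*, an auxiliary subunit related to *Cacna2d2*, measured 20.97 and 28.8 FPKM against 3.07 and 4.03 FPKM, without overlap (log2 fold change 2.50, adjusted p = 2.37e-06). *Cacna1e*, the pore subunit of R-type calcium channels, measured 26.9 and 21.6 FPKM against 4.297 and 3.86 FPKM (2.31), and *Cacng4* was the most abundant at 134 and 109 FPKM against 66.3 and 68.2 FPKM (0.84). The lower gene was *Cacng3*, whose product traffics AMPA receptors (0.3197 and 0.152 FPKM against 4.06 and 3.999 FPKM, -2.03), and a further gene was called lower without Ebf2-EGFP- replicate 2 or with replicate numbers as a block. Among potassium channel genes, *Kcnab1*, a β subunit, reached 2.01 after *Kcnip2*, while *Kcna3* and *Kcnf1* were lower (-1.15 and -0.83).

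Genes of synaptic vesicles and transmitter release followed, with 29 of 47 higher (59 listed) and 3 lower, beside 25.8% and 31.6% of all coding genes. With replicate numbers as a block 5 were lower, and the list's median was 0.69. *Syt6*, a synaptotagmin, measured 27.9 and 17.1 FPKM against 4.36 and 2.48 FPKM, without overlap (log2 fold change 2.40, adjusted p = 5.74e-05). *Sv2b*, a vesicle glycoprotein, measured 11.2 and 9.53 FPKM against 1.555 and 0.803 FPKM, also without overlap (2.40, adjusted p = 1.17e-05). *Cadps2*, a priming factor for dense-core vesicles, was lower (-0.999), and so was the vesicle protein gene *Synpr* (-1.11, and -0.72 without Ebf2-EGFP+ replicate 2). The most abundant, the vesicle GTPase gene *Rab3a*, was not called at 235 and 178 FPKM against 188 and 150.1 FPKM, but was called higher under median-of-ratios scaling (0.49) and with replicate numbers as a block. Its log2 fold change was 0.0789 without Ebf2-EGFP+ replicate 1 and 0.48 without Ebf2-EGFP+ replicate 2. *Sncg* was at 0 in all 4 libraries.

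Of 51 axon guidance genes (64 listed), 16 were higher and 18 lower, near the 25.8% and 31.6% of all coding genes. Their median of -0.09 turned to 0.03 under median-of-ratios scaling, to 0.16 without Ebf2-EGFP+ replicate 2 and to 0.03 without Ebf2-EGFP- replicate 1, and was -0.14 without Ebf2-EGFP+ replicate 1. Single receptors differed widely. *Plxnd1*, a semaphorin receptor, measured 33.5 and 36.02 FPKM against 3.15 and 2.89 FPKM, without overlap (log2 fold change 3.15, adjusted p = 8.68e-07), and *Unc5b*, a netrin receptor, measured 9.12 and 15.3 FPKM against 2.21 and 1.79 FPKM (2.10). Its relative *Unc5d*, a marker of multipolar neurons of the subventricular zone, went the other way at 5.04 and 3.31 FPKM against 21.2 and 26.8 FPKM (-2.29, adjusted p = 1.25e-05). The ephrin receptor gene *Epha3* was lower as well (-1.86). The most abundant member, *Draxin*, a secreted guidance protein, was called higher (109 and 108 FPKM against 75.97 and 75.97 FPKM, 0.51, adjusted p = 0.0425), but not when any of the 4 libraries was left out (0.51 to 0.52).

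Of 45 Wnt and BMP signalling genes (54 listed), 9 were higher and 18 lower, beside 25.8% and 31.6% of all coding genes, with a median of -0.18 that was -0.68 with a pseudocount of 0.1, -0.52 over genes with a mean of at least 1 FPKM in a population, -0.07 without Ebf2-EGFP- replicate 1 and -0.31 without Ebf2-EGFP- replicate 2. The BMP ligand genes *Bmp5* and *Bmp7* were higher, at 1.95 and 5.503 FPKM against 0.119 and 0.0565 FPKM (log2 fold change 2.01, adjusted p = 0.000115) and at 2.01 and 3.78 FPKM against 0.685 and 0.417 FPKM (1.30), both without overlap. *Id3*, a target of BMP signalling, was lower at 0.872 and 0.756 FPKM against 13.98 and 6.38 FPKM (-2.54), as was the Wnt receptor gene *Fzd2* (-2.12). *Id2* was the most abundant and was not called (185 and 203 FPKM against 177 and 161 FPKM). Extracellular matrix genes were lower more often, with 7 of 36 higher (45 listed) and 20 lower, and a median of -0.60 that was -1.16 with a pseudocount of 0.1. *Spock2*, a secreted proteoglycan, measured 59.3 and 79.9 FPKM against 11.6 and 15.3 FPKM (2.28, adjusted p = 6.02e-06), and *Sparcl1* reached 1.62. *Tnc*, the tenascin of radial glia, measured 1.04 and 1.37 FPKM against 14.7 and 14.6 FPKM (-2.83, adjusted p = 3.66e-07), and the fibronectin gene *Fn1* was lower by -2.45. In these 4 genes the libraries did not overlap, and *Gpc2* was the most abundant member without being called (213 and 197 FPKM against 164 and 184 FPKM), though it was called higher under median-of-ratios scaling (0.44), and was 0.15 without Ebf2-EGFP- replicate 1.

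Genes of deep layer neurons were more often higher than lower in Ebf2-EGFP+ cells, and genes of upper layer neurons more often lower than higher. Of 17 deep layer and corticofugal genes (18 listed), 11 were higher and 1 lower (median 0.95), beside 25.8% and 31.6% of all coding genes. The deep layer list had a summed level of 1298 and 839 FPKM in the Ebf2-EGFP+ libraries and 711 and 434 FPKM in the negative libraries. Besides *Hs3st4*, at 72.9 and 60.8 FPKM against 5.78 and 5.35 FPKM, the largest difference was in *Crym*, which encodes a thyroid hormone binding protein (85.5 and 49.9 FPKM against 11.97 and 5.06 FPKM, log2 fold change 2.90, adjusted p = 2.89e-05). *Tle4* and *Fezf2*, regulators of corticofugal neurons chosen after their values were seen, had log2 fold changes of 2.52 and 1.25. *Etv1*, an ETS factor of layer 5, was lower (0.412 and 1.27 FPKM against 2.53 and 2.65 FPKM, -1.003), a call lost without Ebf2-EGFP+ replicate 1 (-0.66). *Nfib* was the most abundant member and overlapped, at 400.1 and 268 FPKM against 326 and 198 FPKM (0.36, adjusted p = 0.253), and was called higher with replicate numbers as a block. Its log2 fold change was 0.0064 without Ebf2-EGFP- replicate 2, 0.0759 without Ebf2-EGFP+ replicate 1, 0.65 without Ebf2-EGFP+ replicate 2 and 0.72 without Ebf2-EGFP- replicate 1. No defining gene of this list in the table was at 0, and the part of these neurons in the result was not tested.

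Of 16 upper layer genes (17 listed), 3 were higher and 11 lower, beside 25.8% and 31.6% of all coding genes. The upper layer list had a median of -1.47 and a summed level of 382 and 412 FPKM against 829.6 and 896 FPKM. *Cux2*, a homeobox gene of upper layers and their progenitors, measured 2.69 and 2.89 FPKM against 31.6 and 39.4 FPKM, without overlap (log2 fold change -3.26, adjusted p = 8.2e-07). *Lhx2*, a LIM homeodomain factor and the most abundant member, measured 78.2 and 48.2 FPKM against 209.8 and 147 FPKM (-1.50). *Plxnd1* and *Mef2c* were among the 3 higher genes, and *Mef2c*, a MADS-box factor, was called higher at 0.93, a call lost without Ebf2-EGFP+ replicate 2 (0.75), without Ebf2-EGFP- replicate 1 (0.47) and when the 4 libraries were fitted by themselves. Migrating cortical neuron genes were lower in 12 of 18 and higher in 1 (median -1.04), beside 31.6% and 25.8% of all coding genes. Their summed level was 1860.0 and 1589 FPKM against 2315 and 2349 FPKM. The bHLH factor *Neurod6*, the most abundant, overlapped at 369 and 283 FPKM against 377 and 342 FPKM, and its log2 fold change of -0.15 turned to 0.06 under median-of-ratios scaling and 0.04 without Ebf2-EGFP+ replicate 2. The higher gene was *Pcp4*, a calmodulin regulator (126 and 129 FPKM against 81.8 and 58.02 FPKM, 0.88).

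Of 14 subplate genes (17 listed), 7 were higher and 4 lower, beside 25.8% and 31.6% of all coding genes. The lower count was near that share, and was 2 when the 4 E15.5 libraries were fitted by themselves. The subplate genes had a summed level of 206 and 166 FPKM against 148 and 136 FPKM. Their median of 0.79 was 0.40 without Ebf2-EGFP+ replicate 1. *Pde1a*, a calmodulin-dependent phosphodiesterase, measured 10.6 and 6.06 FPKM against 1.39 and 0.7197 FPKM (log2 fold change 2.16, adjusted p = 2.62e-05), and *Kcnab1* measured 6.07 and 4.58 FPKM against 0.532 and 0.577 FPKM. *Lpar1*, a lysophosphatidic acid receptor gene, was lower at 0.419 and 0.342 FPKM against 5.87 and 2.98 FPKM (-1.92), and none of these 3 overlapped. *Ctgf*, a matricellular protein gene of the subplate, was lower at -0.74, a call lost without Ebf2-EGFP+ replicate 1 (-0.43), without Ebf2-EGFP- replicate 2 (-0.40) and when the 4 libraries were fitted by themselves. *Syt4*, the most abundant, was not called (32.02 and 40.9 FPKM against 42.01 and 64.2 FPKM, -0.51) but was called lower without Ebf2-EGFP- replicate 1 (-0.81) and with replicate numbers as a block. Its log2 fold change was -0.34 without Ebf2-EGFP+ replicate 1 and -0.21 without Ebf2-EGFP- replicate 2, and -0.31 under median-of-ratios scaling.

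**Figure D3:**
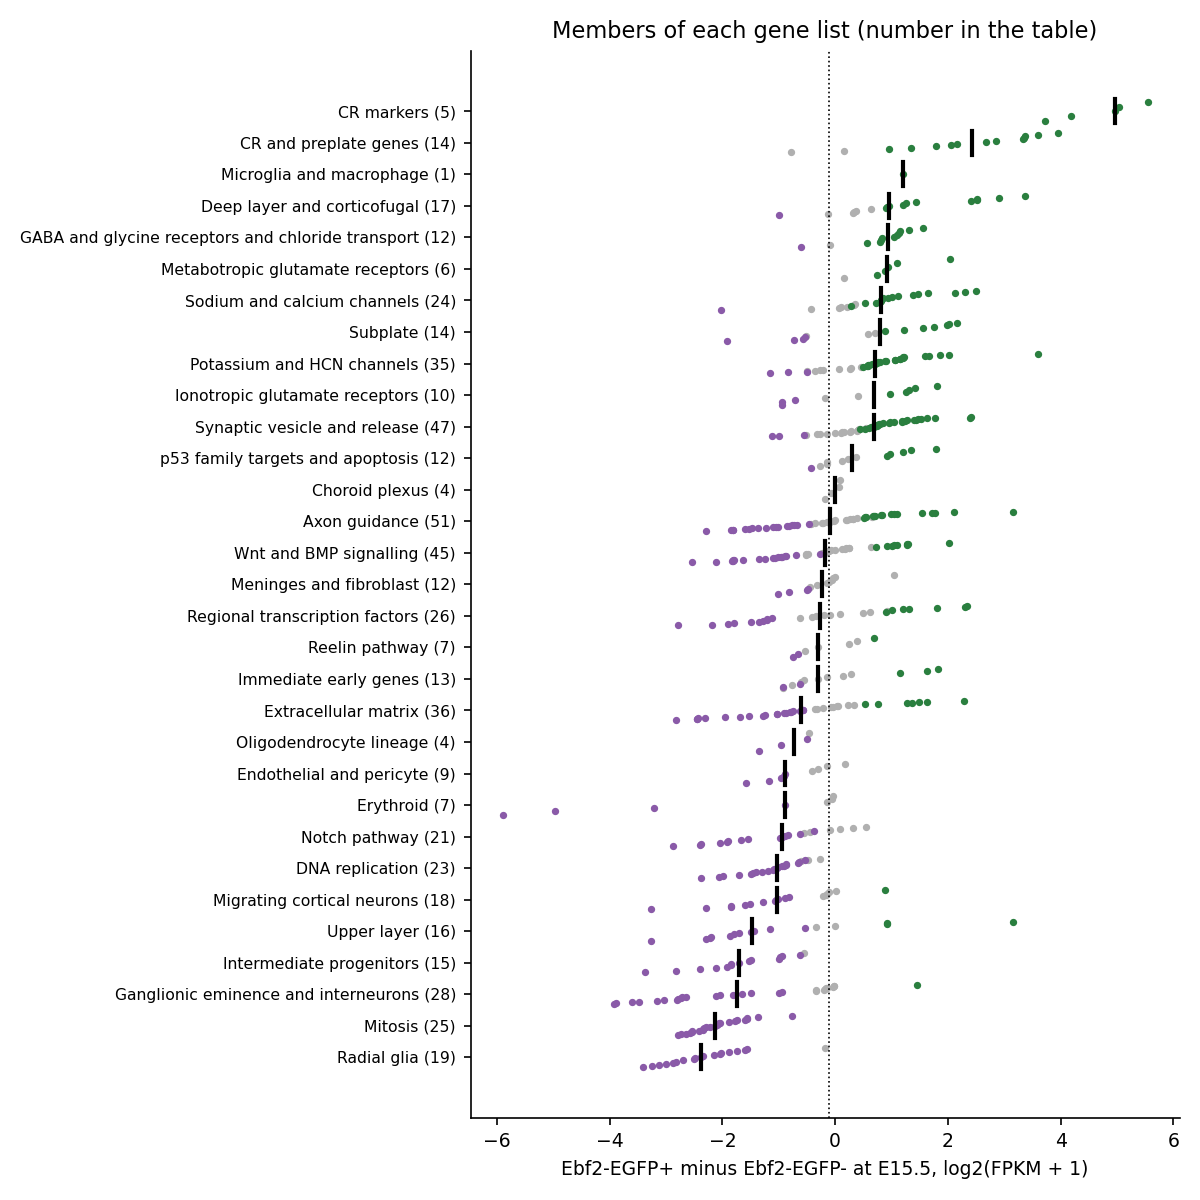
Log2 fold change at E15.5 of each member of the 31 gene lists, with the number of members in the table. Each point is a gene, green if called higher, purple if called lower and grey if not called; the black bar is the list's median and the dotted line the median of all coding genes (-0.11). The lists run from radial glia at the bottom (median -2.39) to CR markers at the top (4.97).

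Progenitor genes were lower nearly throughout. Beside the radial glia and Notch counts that follow, 31.6% of all coding genes were lower and 25.8% higher. Of 19 radial glia genes (20 listed), 18 were lower and 0 higher (median -2.39), and their summed level was 228 and 163 FPKM in the Ebf2-EGFP+ libraries and 1114 and 652 FPKM in the negative libraries. *Sox2*, a factor of neural stem cells, measured 3.37 and 1.42 FPKM against 54.98 and 20.5 FPKM, without overlap (log2 fold change -3.41, adjusted p = 6.27e-05). *Mfge8*, which encodes a secreted milk fat globule protein, measured 3.14 and 2.03 FPKM against 40.9 and 25.8 FPKM (-3.24, adjusted p = 1.05e-06), and *Vim*, the vimentin gene and the most abundant member, 96.96 and 47.8 FPKM against 353 and 181 FPKM (-1.88). The exception was *Ptprz1*, a receptor phosphatase chosen after its values were seen, at 51.7 and 51.7 FPKM against 51.5 and 66.8 FPKM. Notch pathway genes were lower in 15 of 21 and higher in 0 (median -0.95), and 2 were called higher under median-of-ratios scaling, without Ebf2-EGFP- replicate 2 or with replicate numbers as a block. The receptor gene *Notch1* measured 1.798 and 1.16 FPKM against 21.1 and 13.7 FPKM (-2.87, adjusted p = 3.4e-06), and *Mfng*, a glycosyltransferase that modifies Notch, 6.32 and 4.79 FPKM against 36.7 and 29.9 FPKM (-2.39).

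Dividing cells were marked by the same direction. The shares to set beside each list here are those of all coding genes, 31.6% lower and 25.8% higher. All 25 mitosis genes were lower in Ebf2-EGFP+ cells (median -2.13), with a summed level of 30.8 and 32.8 FPKM against 341 and 173 FPKM. *Ube2c*, a ubiquitin-conjugating enzyme of the anaphase-promoting complex, was the most abundant at 4.04 and 3.85 FPKM against 54.4 and 19.8 FPKM (log2 fold change -2.78, adjusted p = 0.000105), and *Top2a*, a topoisomerase, measured 2.17 and 1.74 FPKM against 28.04 and 12.3 FPKM (-2.74). Of 23 DNA replication genes (25 listed), 20 were lower and 0 higher (median -1.03), and 13 were lower without Ebf2-EGFP- replicate 1. The helicase genes *Mcm3* and *Mcm2* had log2 fold changes of -2.39 and -2.07, while *Pcna*, the sliding clamp and most abundant member, still stood at 41.9 and 46.03 FPKM against 111 and 79.3 FPKM (-1.08). Intermediate progenitor genes were lower in 14 of 15 and higher in 0 (median -1.71), with a summed level of 236 and 165 FPKM against 723 and 477 FPKM. *Eomes*, which encodes TBR2, the T-box factor of these cells, measured 9.24 and 4.46 FPKM against 97.5 and 60.4 FPKM, without overlap (-3.38, adjusted p = 6.12e-06), and the proneural gene *Neurog2* 7.22 and 3.83 FPKM against 68.2 and 28.03 FPKM (-2.83). *Hes6*, a bHLH gene of differentiating progenitors and the most abundant, was lower at -0.95, a call lost without Ebf2-EGFP+ replicate 2 (-0.68) or Ebf2-EGFP- replicate 1 (-0.69). In the negative libraries, replicate 1 was above replicate 2 in the summed level of each of these progenitor lists, and the part of progenitors in the overall difference was not tested.

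Genes of the ganglionic eminences and of interneurons were lower more often than higher, where 31.6% of all coding genes were lower and 25.8% higher. Of 28 (29 listed), 18 were lower and 1 higher (median -1.73, or -2.52 with a pseudocount of 0.1 and -2.69 with a mean of at least 1 FPKM), with a summed level of 42.4 and 49.02 FPKM in the Ebf2-EGFP+ libraries and 304 and 229 FPKM in the negative libraries. *Lhx6*, a LIM homeodomain factor of interneurons from the medial ganglionic eminence, measured 0.891 and 1.46 FPKM against 32.1 and 31.7 FPKM, without overlap (log2 fold change -3.93, adjusted p = 1.22e-06). *Sst*, the somatostatin gene and the most abundant of the list, measured 3.17 and 2.41 FPKM against 75.4 and 39.3 FPKM (-3.88, adjusted p = 8.52e-06). The homeobox gene *Dlx1*, which acts in GABAergic neurons, measured 0.214 and 0.393 FPKM against 15.48 and 11.9 FPKM (-3.49), and none of these 3 genes overlapped. The higher gene was *Penk*, an opioid peptide precursor (2.75 and 3.86 FPKM against 0.746 and 0.3896 FPKM, 1.45). No gene of the list was at 0 in all 4 libraries, and the part of these neurons in the result was not tested.

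With 1 added to FPKM, the lowest fold changes of all belonged to adult-type globin genes. *Hbb-b2* measured 1.54 and 1.33 FPKM against 103 and 201 FPKM (log2 fold change -5.90, adjusted p = 3.05e-06), and *Beta-s*, the name in the table for *Hbb-bs*, measured 16.8 and 44.7 FPKM against 564 and 2083 FPKM (-5.25, adjusted p = 2.76e-05). *Hbb-b1* measured 7.41 and 27.9 FPKM against 196 and 1196 FPKM (-4.96, adjusted p = 0.0112), a call lost with a pseudocount of 0.1, without Ebf2-EGFP+ replicate 1 (-4.07) or Ebf2-EGFP- replicate 2 (-3.66). No library of a population overlapped the other in these 3 genes, in which replicate 2 was the higher negative library each time. Their sequences are nearly the same, so the assignment of reads among them is uncertain. *Beta-s* was not matched to the list of erythroid genes and is in none of its values. Of the 7 erythroid genes matched by name (15 listed), 4 were lower and 0 higher, and 2 were lower without Ebf2-EGFP+ replicate 1 or Ebf2-EGFP- replicate 2. Over all coding genes, 31.6% were lower and 25.8% higher. The median of the 7 erythroid genes, -0.89, was -2.88 with a pseudocount of 0.1 and -4.96 with a mean of at least 1 FPKM. Their summed level was 9.29 and 29.7 FPKM against 306 and 1422 FPKM, less in each library than *Beta-s* by itself, and *Hbb-y*, the embryonic globin gene, was listed at 0 in both Ebf2-EGFP+ libraries. The part of erythroid cells in the negative libraries was not tested.

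Other non-neural lists had fewer members in the table. Endothelial and pericyte genes were lower in 5 of 9 (15 listed) and higher in 0, with a median of -0.88 (-1.80 with a pseudocount of 0.1 and -0.53 without Ebf2-EGFP- replicate 2) and a summed level of 10.6 and 13.3 FPKM against 22.7 and 26.5 FPKM, the most abundant gene being the glucose transporter gene *Slc2a1* (-0.90). *Vtn* and *Pdgfrb*, genes of pericytes, were lower by -1.59 and -1.18. Of 12 meninges and fibroblast genes (15 listed), 4 were lower, near the 31.6% of all coding genes, and 0 higher, and 2 were lower without Ebf2-EGFP- replicate 2. Their median was -0.24, and was -1.02 with a pseudocount of 0.1, -0.46 with a mean of at least 1 FPKM, -0.40 without Ebf2-EGFP+ replicate 2, -0.12 without Ebf2-EGFP- replicate 1 and -0.09 without Ebf2-EGFP+ replicate 1. Their summed level of 16.6 and 51.02 FPKM against 26.98 and 22.4 FPKM was led by *Cxcl12*, a chemokine gene of the meninges, at 10.2 and 44.2 FPKM against 12.4 and 7.97 FPKM. *Cxcl12* was not called (1.04, adjusted p = 0.0741), was called higher without Ebf2-EGFP+ replicate 1 (2.04), under median-of-ratios scaling (1.24) and with replicate numbers as a block, and was 0.03 without Ebf2-EGFP+ replicate 2. *Serping1* and *Igf2* were lower (-1.01 and -0.82), the call of *Igf2* being lost without Ebf2-EGFP+ replicate 2 (-0.66) or Ebf2-EGFP- replicate 2 (-0.68), and *Aldh1a2*, a defining gene of the meninges, was at 0 in all 4 libraries. The only microglia and macrophage gene of 14 in the table was *Aif1*, which was higher in Ebf2-EGFP+ cells (2.92 and 2.87 FPKM against 0.626 and 0.773 FPKM, 1.20). Of 4 oligodendrocyte lineage genes (8 listed), 3 were lower and 0 higher (median -0.73, or -2.22 with a pseudocount of 0.1 and -1.16 with a mean of at least 1 FPKM), led by *Olig1* and *Olig2*, bHLH factors also of ventral progenitors (-1.35 and -0.97), with a summed level of 0.5402 and 0.918 FPKM against 3.64 and 5.44 FPKM. None of 4 choroid plexus genes (8 listed) was called (median -0.0084, or 0.0052 under median-of-ratios scaling, -0.13 with a pseudocount of 0.1 and 0.05 without Ebf2-EGFP- replicate 1), and the most abundant, *Otx2*, measured 0.363 and 0.155 FPKM against 0.25005 and 0.121 FPKM. The part of these cells in the results was not tested.

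Of 13 immediate early genes (21 listed), 3 were higher and 2 lower, beside 25.8% and 31.6% of all coding genes (median -0.31, or -0.10 under median-of-ratios scaling and -0.15 without Ebf2-EGFP+ replicate 1), with 1 lower without Ebf2-EGFP+ replicate 1 or Ebf2-EGFP- replicate 2 and 6 lower with replicate numbers as a block. *Fosl2*, an AP-1 factor, measured 26.7 and 18.4 FPKM against 6.89 and 4.37 FPKM, without overlap (log2 fold change 1.83, adjusted p = 0.000204), and the nuclear receptor gene *Nr4a3* 53.5 and 36.8 FPKM against 14.8 and 12.6 FPKM (1.63). *Arc* was lower (-0.62), as was *Atf3* (-0.92), a call lost without Ebf2-EGFP+ replicate 1 (-0.60) or Ebf2-EGFP- replicate 2 (-0.50). The most abundant, *Fos*, overlapped and was not called (83.6 and 163 FPKM against 139.7 and 226 FPKM), but was called lower with replicate numbers as a block. Of 12 p53 family targets and apoptosis genes (20 listed), 5 were higher and 1 lower, with a median of 0.30, which was 0.46 under median-of-ratios scaling, 0.52 without Ebf2-EGFP+ replicate 1 and 0.20 without Ebf2-EGFP+ replicate 2. *Cdkn1a*, which encodes the cell cycle inhibitor p21, measured 9.59 and 5.51 FPKM against 1.84 and 1.01 FPKM, without overlap (1.79, adjusted p = 0.0010000), and *Phlda3*, an inhibitor of AKT, 4.92 and 4.997 FPKM against 1.97 and 0.8699 FPKM (1.34). *Mdm2*, the p53 ubiquitin ligase gene, was lower (-0.42), a call lost under median-of-ratios scaling (-0.23), with the 4 libraries fitted by themselves, without Ebf2-EGFP+ replicate 1 (-0.42), Ebf2-EGFP+ replicate 2 (-0.42) or Ebf2-EGFP- replicate 1 (-0.35). The most abundant, *Bcl2l1*, was not called (65.9 and 53.8 FPKM against 51.4 and 49.8 FPKM) but was called higher under median-of-ratios scaling (0.44).

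The most abundant genes of both populations were those of tubulins, actin and their regulators, and no call was made among them. *Tuba1a*, an α-tubulin gene of growing neurons, was the highest in all 4 libraries, at 6646 and 8227 FPKM against 5177 and 6594 FPKM (0.34, adjusted p = 0.323), and was called higher with replicate numbers as a block. Its log2 fold change was 0.17 without Ebf2-EGFP- replicate 1, 0.19 without Ebf2-EGFP+ replicate 2 and 0.51 without Ebf2-EGFP- replicate 2. The β-tubulin gene *Tubb2b* measured 3546 and 3483 FPKM against 2440.1 and 2946 FPKM (0.39), and was called higher under median-of-ratios scaling (0.60), without a trend and with replicate numbers as a block, but was 0.25 without Ebf2-EGFP- replicate 1. *Tmsb4x* and *Tmsb10*, which encode actin-sequestering thymosins, stood at 4026 and 3160.3 FPKM and at 2703 and 1491 FPKM in the negative libraries and at 3222 and 2809 FPKM and 2906 and 1605 FPKM in the Ebf2-EGFP+ libraries. The microtubule regulator gene *Stmn1* and the actin gene *Actg1* had log2 fold changes of 0.02 and 0.13.

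Among 200 lncRNA transcripts, 98 (49%) differed at E15.5, 44 higher (22%) and 54 lower (27%), with a median log2 fold change of -0.08. Under median-of-ratios scaling 49 were higher and 47 lower, so the larger side turned over here too. With 1 added to FPKM, *Gm27199* led the higher side with 5.14 and 12.7 FPKM against 0.269 and 0.0648 FPKM (log2 fold change 2.98, adjusted p = 4.74e-05). With a pseudocount of 0.1, *Lhx1os* (5.25) was above *Gm27199* (5.05). *Gm27199* lies at chr5:120419659-120431767 (GRCm38) in antisense orientation and overlaps *Lhx5* in GENCODE M21. In RefSeq *Lhx5* starts at chr5:120431886, past the end of *Gm27199*. The strand of the reads is not known here, so reads from any shared sequence cannot be told apart. *Lhx1os* came next with 6.96 and 7.19 FPKM against 0.254 and 1.6e-05 FPKM (2.85, adjusted p = 4.74e-05), and starts 149 bases from *Lhx1*, a LIM homeodomain gene of CR neurons that was called higher itself (3.896 and 3.16 FPKM against 0.135 and 0.0413 FPKM, 2.05, a gene chosen after its values were seen). The promoter of *Lhx1* (chr11:84525485-84525784, minus strand) is shown because it holds the start of both, with the 65 bases of *Lhx1os* exon 1 (chr11:84525684-84525748) in capitals. *Lhx1os* lies on the plus strand, so the capitals are the reverse complement of its exon.
Lhx1: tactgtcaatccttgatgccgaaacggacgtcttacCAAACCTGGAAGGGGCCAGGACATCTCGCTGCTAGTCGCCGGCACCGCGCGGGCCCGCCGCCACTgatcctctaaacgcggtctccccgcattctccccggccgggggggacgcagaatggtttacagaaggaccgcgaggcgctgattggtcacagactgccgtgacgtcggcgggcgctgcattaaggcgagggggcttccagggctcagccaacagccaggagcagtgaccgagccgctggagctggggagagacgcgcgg

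*Gm28050*, an intergenic lncRNA, *Gm16277*, antisense to the GDNF receptor gene *Gfra1*, and *Gm13716*, antisense to *Lrrc55*, completed the 5 with the largest fold changes (2.27, 1.62 and 1.61). *Dlx1as*, which overlaps *Dlx1* on the other strand and so shares sequence with it, was the lowest with 1 added to FPKM. It measured 1.62 and 1.9995 FPKM against 47.6 and 45.6 FPKM (-4.09, adjusted p = 1.59e-06). It is also listed among the coding genes, where its log2 fold change was -3.99. With a pseudocount of 0.1, *RP24-166N8.8* (-6.30) was below *Dlx1as* (-4.62) among the lncRNAs. *Pantr1*, which lies 2640 bases from the POU factor gene *Pou3f3*, measured 10.8 and 10.5 FPKM against 107 and 98.6 FPKM (-3.15, adjusted p = 2.98e-06). *Gm29260* measured 0.481 and 0.515 FPKM against 10.7 and 9.32 FPKM (-2.88), and *A830082K12Rik*, which overlaps *Nr2f1* in antisense orientation, 2.61 and 2.84 FPKM against 27.6 and 18.8 FPKM (-2.67). *RP24-166N8.8* was listed at 0 in both Ebf2-EGFP+ libraries and at 4.45 and 13.6 FPKM in the negative libraries (adjusted p = 0.0235), a call lost without Ebf2-EGFP+ replicate 1, Ebf2-EGFP+ replicate 2 or Ebf2-EGFP- replicate 2. These 10 lncRNAs were taken from those called without overlap, and of all 200, 32% were above and 44.5% below in both Ebf2-EGFP+ libraries.

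**Figure D4:**
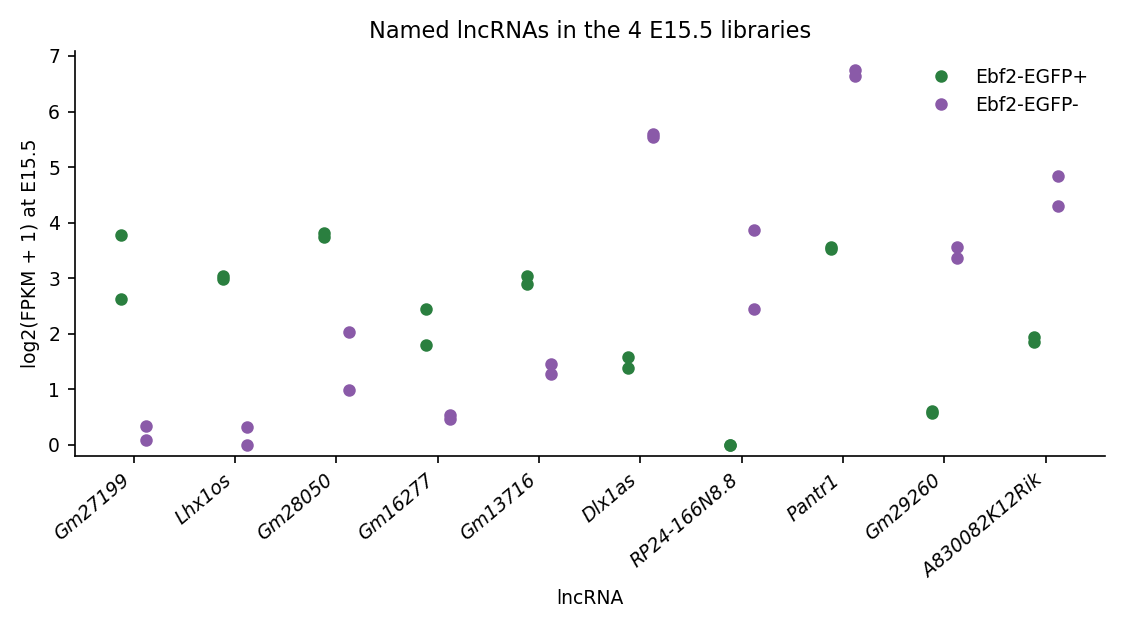
Level of the 5 lncRNAs with the largest and the 5 with the smallest log2 fold change at E15.5, as log2(FPKM + 1). Each point is a library, green for Ebf2-EGFP+ and purple for Ebf2-EGFP- cells, and all 10 were chosen among lncRNAs called without overlap.

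Most E15.5 differences had the same direction in the separate libraries of E13.5, where 75.6% of coding genes and 56% of lncRNAs were called (32.1% and 25% higher, 43.5% and 31% lower). At E11.5 81.7% and 72% were called (36.8% and 40% higher, 44.9% and 32% lower). Of the genes higher at E15.5, 1012 were also higher at E13.5 (80.7% of the E15.5 genes and 64.9% of the E13.5 genes) and 38 were lower there. Of those lower at E15.5, 1321 were also lower at E13.5 (86.1% and 62.5%), with 15 in the opposite direction. Less was shared with E11.5: 766 higher genes (61.1% and 42.8%) and 1082 lower genes (70.5% and 49.5%), with 152 and 179 in the opposite direction. Of the lncRNAs, 29 were higher at both E15.5 and E13.5 (65.9% and 58%) and 41 lower (75.9% and 66.1%), with 0 and 3 in the opposite direction. Fewer lncRNAs were shared with E11.5: 20 higher (45.5% and 25%) and 28 lower (51.9% and 43.8%), with 4 and 10 in the opposite direction.

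The E15.5 difference minus the mean of the E11.5 and E13.5 differences, called the departure here, was tested in the same limma fit. It was above 0 in 1418 coding genes (29.2%) and below 0 in 1091 (22.5%), but in 1001 and 1122 with a pseudocount of 0.1, where the larger side turned over, and in 963 and 852 without Ebf2-EGFP- replicate 2. It was above 0 in 31 and below 0 in 43 (21.5%) of the lncRNAs, 37% of which were called. Of the lncRNAs, 50 were above 0 with replicate numbers as a block, 18 without Ebf2-EGFP+ replicate 2 and 19 without Ebf2-EGFP- replicate 2, and under median-of-ratios scaling 46 were above and 30 below, so that their share above 0 among those called moved from 41.9% to 60.5%. Of the CR markers, *Ndnf* departed most, by 4.82 (standard error 0.59, adjusted p = 0.000177). Its log2 fold changes were -0.25 at E11.5 and 0.56 at E13.5 before 4.97 at E15.5. *Lhx5*, *Cacna2d2* and *Trp73* departed upward by 1.91, 1.60 and 1.15. The departure of *Reln*, 0.83, was not called (adjusted p = 0.0986), but was called with replicate numbers as a block and without Ebf2-EGFP+ replicate 1 (1.43), and it was 0.23 without Ebf2-EGFP+ replicate 2. That of *Ebf2* was -0.96, after differences of 4.76 at E11.5 and 1.49 at E13.5, was not called without Ebf2-EGFP+ replicate 1 (-0.62), and turned to 0.64 when 0.1 in place of 1 was added to FPKM.

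*Gdf5*, a ligand of the BMP family, was among the genes that gained most at E15.5, at 5.69 and 12.9 FPKM against 0.131 and 0.0373 FPKM, with a departure of 3.76 (standard error 0.31, adjusted p = 2.82e-05). *Fkbp9*, a prolyl isomerase of the endoplasmic reticulum, measured 23.9 and 59.9 FPKM against 7.87 and 5.05 FPKM, and its log2 fold change went from -2.02 at E11.5 and -0.67 at E13.5 to 2.41 (departure 3.76, adjusted p = 0.000123). *Tspan18*, a tetraspanin, and *Fibcd1*, an acetyl-binding receptor, departed by 3.01 and 2.79, and in these 4 genes the E15.5 libraries did not overlap. *Hbb-y* also departed upward (2.71), at a gene listed at 0 in the Ebf2-EGFP+ libraries of E15.5 and at 0.0854 and 0.123 FPKM in the negative libraries.

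*Eomes* departed farthest in the other direction, by -4.67 (standard error 0.37, adjusted p = 2.82e-05), from a log2 fold change of 3.72 at E11.5 and -1.15 at E13.5 to -3.38 at E15.5. *Mfap4*, a microfibril-associated glycoprotein, went from 2.63 and -0.21 to -2.56 (departure -3.77), with 13.8 and 4.93 FPKM against 64.6 and 45.6 FPKM at E15.5. The bHLH factor genes *Nhlh1*, *Neurod1* and *Neurod2* departed by -3.73, -3.15 and -3.14, and the semaphorin receptor gene *Plxna4* by -3.53. At E15.5, *Plxna4* was lower at 11.7 and 17.8 FPKM against 31.8 and 65.6 FPKM (-1.59), and *Neurod1*, whose libraries overlapped, was called lower at -0.99 (adjusted p = 0.0463), a call lost under median-of-ratios scaling (-0.79), without Ebf2-EGFP+ replicate 2 (-0.26), without a trend, with the 4 libraries fitted by themselves and without Ebf2-EGFP- replicate 1 (-0.65). Over all coding genes, 22.5% departed downward and 29.2% upward, at a median of 0.16. By list, 16 of 18 migrating cortical neuron genes and 12 of 15 intermediate progenitor genes departed downward and 0 upward, at medians of -1.97 and -1.83. Of 47 synaptic vesicle genes 27 departed downward and 5 upward (median -0.76), while the list's median of the population difference went from 1.65 through 1.10 to 0.69 over the 3 stages. Upward departures were made by 16 of 23 DNA replication genes (median 1.03) and 27 of 45 Wnt and BMP genes (median 0.81). The median population difference of DNA replication genes went from -2.03 through -2.05 to -1.03 over the 3 stages. That of Wnt and BMP genes went from -1.36 through -0.34 to -0.18, so both medians stayed below 0.

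**Figure D5:**
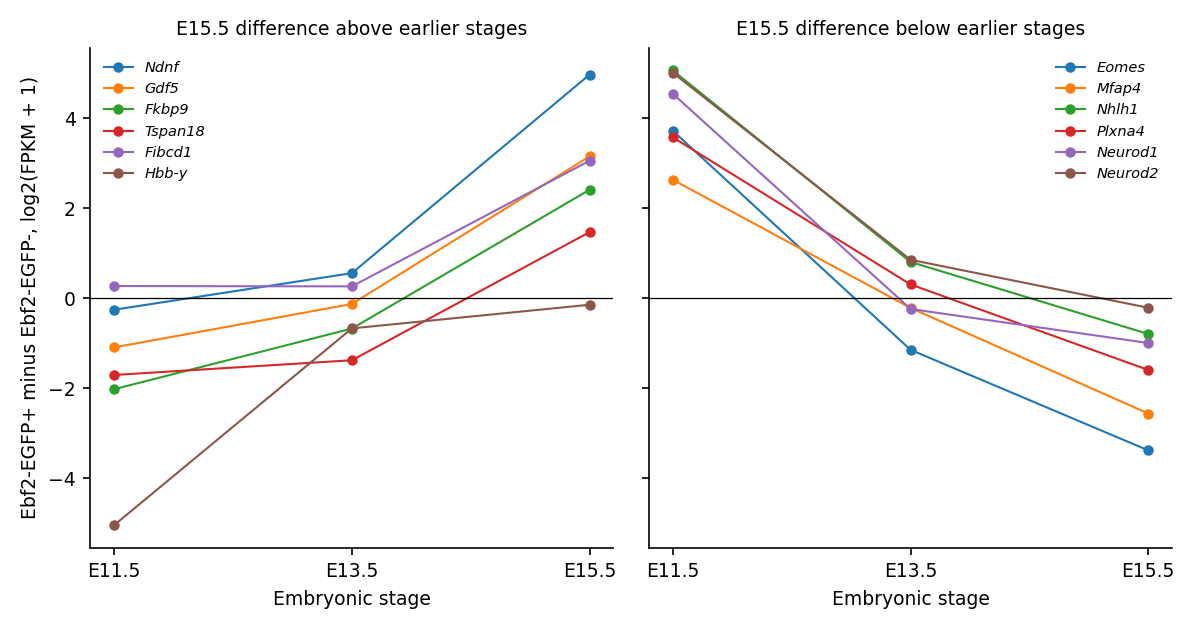
Log2 fold change, Ebf2-EGFP+ minus Ebf2-EGFP-, by embryonic stage for the 6 coding genes with the largest departure in each direction. Each line is a gene; on the left the E15.5 point lies above the earlier points and on the right below them.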

How the data were processed

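The deposited tables hold FPKM for each of 12 libraries, which the authors computed with Cufflinks 2.2.0 after aligning reads to mm10 (GRCm38) with TopHat2 2.0.8b. They list only features the authors called differential, so adjusted p-values describe that list. The tables also hold the authors' means, folds and p-values, which were not used. The depth of each library was not read from the values, in which low FPKM share no common step (at most 21.6% at the commonest ratio, tolerance 1%), so precision is the spread of 2 libraries.

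All 12 libraries were fitted as 6 groups on log2(FPKM + 1) with limma 3.58.1 (trend) in R 4.3.3, for each table by itself. Two-sided p was adjusted by Benjamini-Hochberg, with a threshold of 0.05. The fit was tried on simulated coding genes, with each library drawn independently. It called 68 of 100 genes changed by 1 on the log2 scale, 97 of 100 changed by 2, and 4 unchanged genes. The simulation left out the correlation between libraries given next. After group means were subtracted, libraries with the same replicate number correlated over coding genes at 0.431, 0.534 and 0.431 (E11.5, E13.5, E15.5), and over lncRNAs at 0.265, 0.385 and 0.435. The numbers were thus taken to mark pairs, and a fit with them as a block is named where it changed a call or moved a count over 1.5 times.

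Genes to name were taken from the CR markers and *Ebf2*, the 12 coding genes and 5 lncRNAs with the largest and smallest fold changes called without overlap, up to 2 called members per direction and the most abundant member of each of 31 lists, the 5 most abundant genes of each population, and the 6 with the largest departure in each direction. Members and lists were chosen with earlier results of these data known. Alternatives were a pseudocount of 0.1, median-of-ratios scaling, a mean FPKM of at least 1, no trend, the 4 E15.5 libraries by themselves, the replicate block, a 2-fold threshold, and leaving out each E15.5 library, where the remaining library is assumed to vary like the other groups. Python 3.11.15, pandas 2.3.3, NumPy 2.4.6 and matplotlib 3.10.9 made the tables and figures, with positions and promoters from RefSeq (GRCm38.p6) and GENCODE.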

Additional observations from a re-analysis of the deposited data

Results flagged for a closer look

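The difference between Ebf2-EGFP+ and Ebf2-EGFP- cells was not the same at E15.5 as over the earlier stages, by limma's test of the departure, in 1418 coding genes upward and 1091 downward and in 31 lncRNAs upward and 43 downward. With a pseudocount of 0.1 it was 1001 coding genes upward and 1122 downward, so the larger side turned over. Of the CR markers and *Ebf2*, *Ndnf* departed by 4.82, *Lhx5* by 1.91, *Cacna2d2* by 1.60, *Trp73* by 1.15 and *Ebf2* by -0.96. That of *Ebf2* turned to 0.64 with a pseudocount of 0.1 and was not called without Ebf2-EGFP+ replicate 1 (-0.62). The other genes with the largest upward departures were *Gdf5* (3.76), *Fkbp9* (3.76), *Tspan18* (3.01), *Fibcd1* (2.79) and *Hbb-y* (2.71). Downward they were *Eomes* (-4.67), *Mfap4* (-3.77), *Nhlh1* (-3.73), *Plxna4* (-3.53), *Neurod1* (-3.15) and *Neurod2* (-3.14). Stage and the make-up of both sorted populations change together in this design and cannot be told apart.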

How the results depend on the processing

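The larger side of several counts turned over with the setting. Under median-of-ratios scaling, 1597 coding genes were higher and 1323 lower at E15.5, 49 lncRNAs were higher and 47 lower, and 46 lncRNAs departed upward and 30 downward, while with a pseudocount of 0.1, 1001 coding genes departed upward and 1122 downward. With a difference of at least 2-fold required, 538 coding genes were higher and 652 lower at E15.5, and 20 lncRNAs were higher and 34 lower, while 564 coding genes departed from the earlier stages upward and 441 downward, and 9 and 22 lncRNAs. The count of lncRNAs that departed upward, 31, was 14 with a pseudocount of 0.1, 16 with a mean of at least 1 FPKM, 50 with replicate numbers as a block and 18 to 27 with an E15.5 library left out. With such a library left out, 1019 to 1137 coding genes were higher at E15.5 and 1091 to 1522 lower. The median of the axon guidance genes turned to 0.0266 under median-of-ratios scaling and ran from -0.14 to 0.16 with a library left out. The departure of *Ebf2* turned to 0.64 with a pseudocount of 0.1, and the log2 fold change of *Neurod6* to 0.0599 under median-of-ratios scaling. With a library left out, the log2 fold change also changed sign in *Neurod6* from -0.34 to 0.0407, *Otx2* from -0.0354 to 0.20, *Stmn1* from -0.14 to 0.18, *Tmsb10* from -0.32 to 0.54, *Nhlh1* from -1.70 to 0.11 and *Neurod2* from -0.56 to 0.14, none of which was called with all libraries. Of the 2788 coding genes called at E15.5, 2787 were also called with replicate numbers as a block, a fit that called 3414 (1524 higher and 1890 lower). With a pseudocount of 0.1, 17 of the 31 list medians moved by more than the spread of the replicates, among them erythroid genes (-2.88), oligodendrocyte lineage genes (-2.22), endothelial and pericyte genes (-1.80), and meninges and fibroblast genes (-1.02).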

Other observations

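Each population rests on 2 libraries of pooled embryos at this stage, so embryo and litter effects were not measured. The deposited tables list only features that differed somewhere in the series, and shares of all expressed genes were not computed. FPKM is relative within a library and gives no RNA amount per cell. Reporter protein can outlast transcription of its driver, and EGFP RNA was not analysed here. Values are per gene or transcript without strand, so start sites, isoforms and overlapping antisense pairs were not resolved. The gene lists name cell types by marker genes, several of which more than 1 list holds, and no proportion of cells was estimated.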
